A study of Mus musculus with 12 samples.

Results

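The comparison described here is the change of gene expression between early and late pachytene in mouse spermatocytes that lack Zfp541. The KO 360 h group was the late pachytene class cells of the 3 knockout libraries collected 360 h after retinoic acid (77, 66 and 77 cells). The KO 260 h group was the early pachytene class cells of the 3 knockout libraries collected 260 h after it (59, 50 and 32 cells). Together these were 361 of the 929 kept cells of the series, and of the 448 kept knockout cells. The classes are those of the cell table deposited by the authors. Counts of unique molecular identifiers (UMIs, each marking 1 cDNA molecule) were summed over the class cells of a library, so that 3 libraries stood against 3. The wild-type libraries of the same times (WT 360 h with 83, 91 and 93 late class cells, WT 260 h with 25, 57 and 72 early class cells) were used where the text asks whether the change differs between the genotypes.

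All mice were C57BL/6 and had the same synchronising treatment, which the wild-type mice received too. From 2 days after birth they were given WIN 18,446, an inhibitor of retinoic acid synthesis, for 7 days, and on day 8 an injection of retinoic acid, which lets the held spermatogonia enter meiosis together. The knockout is labelled Zfp541-KO. The sources used here state neither the deleted part of the gene nor the number of animals behind the 3 libraries of each group. Spermatogenic cells were collected singly by mouth pipetting, and RNA was counted at its 3′ end.

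Pachytene is the long stage of meiosis during which homologous chromosomes stay joined along their length by the synaptonemal complex, breaks made earlier in the DNA are repaired into crossovers, and the unpaired parts of the X and Y chromosomes are silenced. In the male, the same stage also starts transcription of genes whose products are used much later, in the sperm tail, the acrosome and the metabolism of sperm. ZFP541 is a zinc finger protein of pachytene spermatocytes that binds KCTD19 and, with it, the histone deacetylases HDAC1 and HDAC2.

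The KO 360 h sums held 8640883, 8322773 and 9463189 gene UMIs and the KO 260 h sums 7142215, 5115144 and 2328061, so the last KO 260 h library was the shallowest of the 6. The median class cell had 107587.5 gene UMIs in KO 360 h and 88572 in KO 260 h. The class of a cell was nearly the same thing as the time of its library: every KO 360 h cell used lay in the authors' k-means cluster 4 and every KO 260 h cell in cluster 3. Because the classes were made from expression, the same comparison was also run over all kept cells, which adds 0, 9 and 10 pre-meiotic class cells and 0, 5 and 2 early class cells to the KO 360 h libraries, and 23, 20 and 18 pre-meiotic class cells to the KO 260 h libraries. All libraries used the same 96 well barcodes, and no cell name was shared between libraries. A gene was called at an adjusted p under 0.05 in edgeR's quasi-likelihood test, adjusted by Benjamini-Hochberg over 18692 genes, and the p-values rest on the spread among libraries, part of which may be technical. Levels are in CPM, UMIs per 1000000 after scaling by edgeR's TMM factors, and each log2 fold change is given with its SE. The sources used here do not state whether reads were counted by strand, so a gene that overlaps another annotated gene may hold reads of it, as may be so for Rad54b (Fsbp), Atraid (Slc5a6), Kctd19 (Plekhg4), Tmbim7 (Gatad1), Mcmdc2 (Snhg6) and Ddit3 (Mars).

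Between early and late pachytene in knockout, 4892 of 18692 genes were called (26.2%), of which 3374 were higher at 360 h (18.1%) and 1518 lower (8.12%). At least 2-fold changes were seen for 2879 of the higher and 1335 of the lower genes. The libraries of the 2 times did not overlap for 3359 of the higher and 1492 of the lower genes, as against 45.9% of all genes tested. Over all kept cells 4759 of 20279 genes were called (23.5%; 13.3% higher and 10.2% lower), and 3841 of the 4892 genes (78.5%) were called in the same direction there. The split between higher and lower calls depends on the scaling: 69% of the calls were higher with TMM, 57.5% with RLE factors, 55.1% in DESeq2, 58.7% with no filter on low counts, 56.6% over all kept cells, 53.1% with the 6 knockout libraries alone and 85.1% with the ERCC spike-in RNAs as the scale. Over all genes tested the median log2 fold change was 0.14 with TMM, −0.04 with RLE factors and 0.27 with the spike-ins, and list medians below are to be read against 0.14. With 1 library left out, 2738 genes were called without KO 360 h replicate 1, 3171 without KO 360 h replicate 3 and 3081 without KO 260 h replicate 1, and the lower calls numbered 788 without KO 360 h replicate 2 and 878 without KO 360 h replicate 1.

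The transcript of Zfp541 (ENSMUSG00000078796.4, in mm10 on chromosome 7, 16061814 to 16096334, plus strand) was at 165, 144 and 158 CPM in KO 360 h libraries, against 139, 120.1 and 113 CPM in KO 260 h libraries. The 360 h values lie above the 260 h values in all 3 libraries, but the gene was not called (log2 fold change 0.33 ± 0.24, edgeR adjusted p = 0.347). In wild type Zfp541 had 213, 189.6 and 170.2 CPM at 360 h and 62.8, 87.8 and 125 CPM at 260 h, and the KO change minus the WT change was −0.72 ± 0.34 (adjusted p = 0.217). Since 3′ ends were counted and the deleted part is not given, the transcript level checks nothing about the knockout. Among the 7 genes of its deacetylase complex, Kctd19, the partner protein, rose to 300.2, 326 and 272 CPM in KO 360 h libraries, against 122, 152 and 95 in KO 260 h libraries (log2 fold change 1.28 ± 0.28, edgeR adjusted p = 0.00282). Hdac2 fell to 28.3, 33.4 and 40.7 CPM at 360 h, against 163, 208 and 151 at 260 h (−2.35 ± 0.31, adjusted p = 5.8e-05). The other 5 members, Hdac1 among them (0.46 ± 0.32, adjusted p = 0.328), were not called.

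Genes of the sperm tail had the highest share of members called higher among the lists. Of 62 axoneme and cilium genes tested, 48 were higher at 360 h (77.4%, against 18.1% of all genes) and 0 lower, with a median log2 fold change of 2.19. Of the 48, 46 were also called higher in wild type, all but Rsph1 and Ift88. Hydin, a central pair protein of the axoneme, had 158, 139.8 and 126 CPM in KO 360 h libraries, against 19.1, 15.7 and 21.1 CPM in KO 260 h libraries. Cfap206, a radial spoke component, had 242, 144 and 154 CPM in KO 360 h libraries, against 22.9, 15.2 and 15.8 CPM in KO 260 h libraries. Drc1, a subunit of the nexin-dynein regulatory complex, had 287, 201 and 139.7 CPM at 360 h and 9.92, 21.4 and 12.4 CPM at 260 h. For each of these genes the lowest 360 h library lay several-fold above the highest 260 h library, and the log2 fold changes were 2.92 ± 0.26, 3.31 ± 0.30 and 3.84 ± 0.41 (edgeR adjusted p = 4.55e-06, 4.78e-06 and 1.47e-05). Armc3, an armadillo repeat protein of the sperm tail, was among the smallest p-values of the list too (3.38 ± 0.34, adjusted p = 1.01e-05).

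Genes of several parts of the tail were called. The dynein heavy chains Dnah1 (2.20 ± 0.27), Dnah2 (2.34 ± 0.30), Dnah6 (3.14 ± 0.52), Dnah12 (2.67 ± 0.40) and Dnah17 (4.97 ± 0.73), which power the sliding of microtubules, were all called higher. So were the dynein assembly factors Dnaaf1 (2.76 ± 0.34), Lrrc6 (1.72 ± 0.25) and Zmynd10 (1.66 ± 0.29), which help to assemble dyneins in the cytoplasm, and the radial spoke proteins Rsph9 (2.79 ± 0.36) and Rsph6a (2.98 ± 0.65). Tektin genes, which encode filaments inside the doublet microtubules, differed among themselves: Tekt1 (2.23 ± 0.29) and Tekt2 (3.67 ± 0.45) were higher, while Tekt3 (1.53 ± 0.89, adjusted p = 0.231) and Tekt5 (0.44 ± 0.42, adjusted p = 0.493) were not called. The count of 48 is 45 with RLE factors or DESeq2, 48 with spike-in scaling and 49 over all kept cells.

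**Figure D1:**
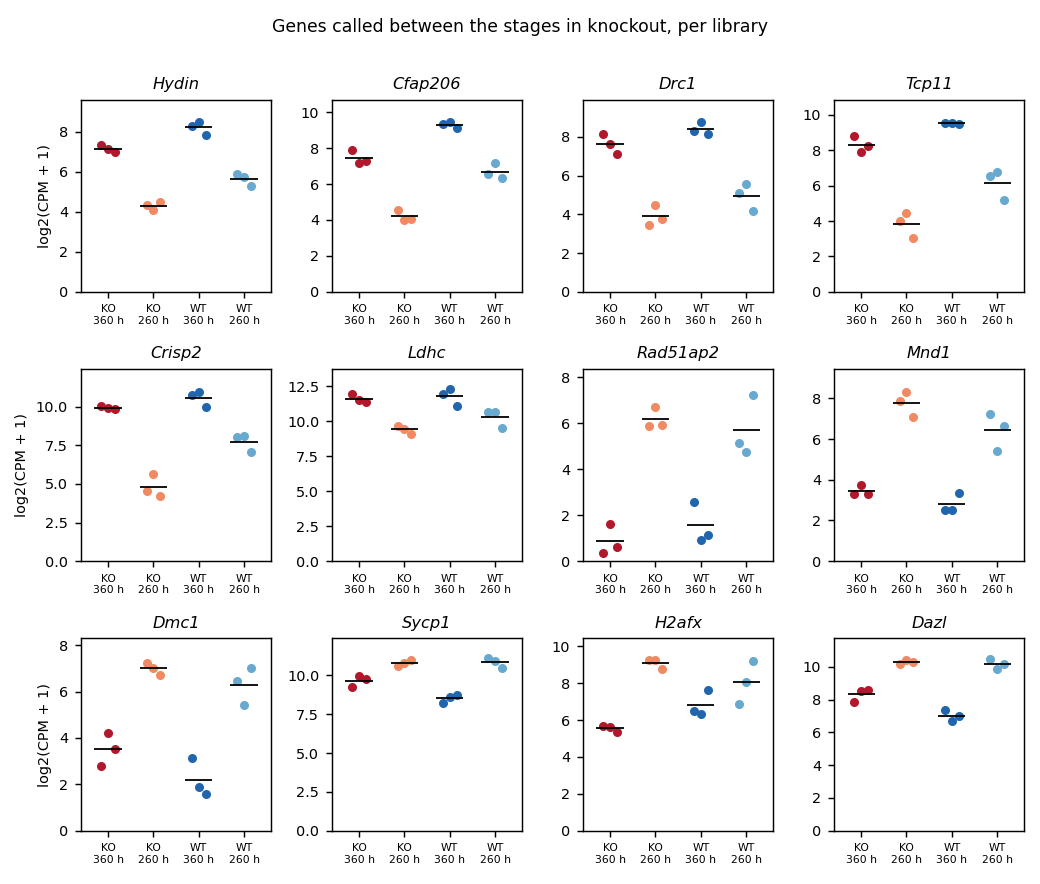
Level of 12 genes in each library as log2(CPM + 1), with KO 360 h, KO 260 h, WT 360 h and WT 260 h from left to right; points are the 3 libraries of a group and the bar is their mean. Hydin, Cfap206, Drc1, Tcp11, Crisp2 and Ldhc lie higher in KO 360 h than in KO 260 h libraries, and Rad51ap2, Mnd1, Dmc1, Sycp1, H2afx and Dazl lie lower, with no overlap of the KO groups in any panel.

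The promoters of 3 axoneme genes named above are shown because most tested genes of this list rose and these upstream sequences hold core motifs of factor families known in spermatocytes. The sequences are RefSeq promoters on GRCm38.p6, 250 bases before and 50 bases after the start of the gene, 5′ to 3′ on the gene's strand. The coordinates are chr8:110266727-110267026 on the plus strand for Hydin, chr5:30281143-30281442 on the plus strand for Drc1 and chr4:34730157-34730456 on the minus strand for Cfap206. Capitals mark GTTGCCA, a sequence bound by RFX factors, or TAACNG, the core bound by MYB proteins, on either strand, so that TGGCAAC and CNGTTA are the same motifs read from the other strand.
Hydin: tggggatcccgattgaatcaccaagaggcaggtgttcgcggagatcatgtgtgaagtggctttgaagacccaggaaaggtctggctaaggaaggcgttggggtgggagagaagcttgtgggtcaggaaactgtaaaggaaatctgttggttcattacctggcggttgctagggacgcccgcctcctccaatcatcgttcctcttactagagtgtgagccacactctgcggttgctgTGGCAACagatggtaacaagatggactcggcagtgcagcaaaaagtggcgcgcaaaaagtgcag
Drc1: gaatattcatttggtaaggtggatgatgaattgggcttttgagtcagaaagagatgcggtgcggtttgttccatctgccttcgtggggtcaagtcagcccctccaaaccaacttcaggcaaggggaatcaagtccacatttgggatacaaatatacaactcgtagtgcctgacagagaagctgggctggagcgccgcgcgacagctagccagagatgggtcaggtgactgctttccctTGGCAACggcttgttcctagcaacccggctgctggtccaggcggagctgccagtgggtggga
Cfap206: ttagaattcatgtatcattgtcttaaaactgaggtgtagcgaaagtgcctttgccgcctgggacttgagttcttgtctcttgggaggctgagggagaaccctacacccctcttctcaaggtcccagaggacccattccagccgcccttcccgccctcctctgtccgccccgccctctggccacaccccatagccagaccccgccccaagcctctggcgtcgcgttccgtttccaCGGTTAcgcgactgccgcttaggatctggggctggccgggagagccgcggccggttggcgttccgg
In Hydin and Drc1 the match to GTTGCCA starts −14 and −12 bases from the start of the gene, and in Cfap206 TAACNG starts at −16. Promoters were matched for 51 of the 62 axoneme genes (82.3%). GTTGCCA is in 11 of these 51 (21.6%) and in 4.38% of the 32851 promoters of the table, and TAACNG is in 22 of 51 (43.1%) and in 23.3% of the table. Of the 24 synaptonemal complex and crossover genes tested, 8 were higher (33.3%, against 18.1% of all genes) and 4 lower (16.7%, against 8.12%) in knockout. Among their matched promoters TAACNG is in 9 of 19 (47.4%, with 79.2% of the genes matched) and GTTGCCA in 1. Among those of the piRNA pathway TAACNG is in 6 of 21 (28.6%) and GTTGCCA in 0. TGACGTCA, the cAMP response element, is in 2 of 51 (3.92%) and in 1.79% of the table, and TATAAA, searched on the gene's strand alone, in 3 of 51 (5.88%) and in 8.32%. No motif holds another in its letters, and a match is a description of the sequence, not of binding. For all called genes the comparison is void, since promoters were matched for 65.6% of the genes tested.

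Genes of the pachytene programme and of germ-cell metabolism rose with the tail genes. Of 37 pachytene programme genes, 18 were higher (48.6%, against 18.1% of all genes) and 1 lower (2.7%, against 8.12%) in knockout (median log2 fold change 0.70). Insl6, a testis member of the insulin family, had 154, 159 and 150.2 CPM in KO 360 h libraries, against 20.2, 17.2 and 8.06 CPM in KO 260 h libraries (3.32 ± 0.32, adjusted p = 7.16e-06). Tcp11, which is needed for sperm motility in mice, had 452, 239.6 and 298 CPM at 360 h, against 15, 20.9 and 7.38 CPM at 260 h (4.49 ± 0.44, adjusted p = 1.02e-05). Both genes were far apart between the times in every library. Spink2, a protease inhibitor of the acrosome (2.90 ± 0.37), and Creb3l4, a transcription factor of the CREB3 family (4.06 ± 0.54), were also called higher. The single lower member was Prss50, which encodes a protease-like protein of the testis, with 10.01, 16.4 and 20.4 CPM in KO 360 h libraries, against 417, 391 and 305 CPM in KO 260 h libraries (−4.57 ± 0.77, adjusted p = 0.00105).

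Of 19 tested germ-cell metabolism genes 13 were higher (68.4%, against 18.1% of all genes) and 0 lower (median 1.31). Gk2, a testis glycerol kinase, had 155, 187 and 179.6 CPM in KO 360 h libraries, against 21.9, 28.2 and 12.8 CPM in KO 260 h libraries (3.04 ± 0.37, adjusted p = 3.45e-05). Slc2a3, the glucose transporter of sperm (2.46 ± 0.29, adjusted p = 2.45e-05), and Pgk2, the retrogene copy of phosphoglycerate kinase (3.07 ± 0.45, adjusted p = 0.000139), were higher too, as was Ldhc, the testis lactate dehydrogenase, at 3907, 2868 and 2595 CPM in KO 360 h libraries, against 821, 699 and 556 CPM in KO 260 h libraries. Acot13, a mitochondrial acyl-CoA thioesterase, had the smallest p of the list and is described with the genotype difference below. Of 21 parent glycolysis genes, 5 were higher (23.8%) and 2 lower (9.52%), near the 18.1% and 8.12% of all genes. Among them Ldha (2.99 ± 0.45), Pfkp (3.24 ± 0.46) and Pfkm (2.63 ± 0.35) rose and Pkm fell (−2.48 ± 0.36).

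Spermatid and acrosome genes were tested for 17 of 36 listed, and the rest did not pass the filter on low counts. Of these 17, 8 were higher (47.1%, against 18.1% of all genes) and 2 lower (11.8%, against 8.12%). Crisp2, a secretory protein of the acrosome and tail, had 1048, 946 and 938 CPM in KO 360 h libraries, against 22.1, 49.3 and 17.5 CPM in KO 260 h libraries (5.03 ± 0.43, adjusted p = 4.55e-06). Zpbp2 (3.38 ± 0.31) and Spata16 (3.98 ± 0.55), both proteins of the acrosome, and Acr, the acrosin protease (2.01 ± 0.34), were also called higher. Spaca1, an acrosome membrane protein, was lower, with 0.267, 1.84 and 0.825 CPM in KO 360 h libraries, against 33.2, 49.7 and 27.5 CPM in KO 260 h libraries. Spem1, a spermatid protein, was lower too, with 0, 0 and 0 CPM at 360 h and 3.19, 0.894 and 2.35 CPM at 260 h. The spermatid markers Prm1, Prm2, Tnp1, Tnp2, Acrv1, Spaca1, Tssk6, Izumo1, Akap4 and Odf1 together summed to 3.30 to 8.59 CPM in KO 360 h and 35.6 to 56.5 CPM in KO 260 h libraries, the 260 h sum being mostly Spaca1. Their part in the result was not tested.

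By rule, the genes with the largest rises among those of at least 20 CPM on average were Gsc2, Tcp10c, Gldnos, Kbtbd11, Tcp10a, Kbtbd8os, Prok2, Tcp10b, Tmbim7, Abcc12, Stpg4 and Pebp4, with log2 fold changes between 5.57 and 8.28. Prok2, a secreted prokineticin (chromosome 6, 99711299 to 99726392, minus strand), had 222, 216 and 181 CPM in KO 360 h libraries, against 2.13, 4.29 and 2.69 CPM in KO 260 h libraries. Tmbim7, of a family of membrane proteins, had 463, 328 and 343 CPM at 360 h, against 5.32, 10.01 and 5.03 CPM at 260 h. Abcc12, an ABC transporter, had 342, 295 and 300.4 CPM at 360 h, against 4.37, 9.47 and 4.03 CPM at 260 h. Each of the 3 had every 360 h library more than 10-fold above every 260 h library. Gsc2, a goosecoid homeobox gene, had 81.4, 17.1 and 26.3 CPM in KO 360 h libraries, against 0, 0.357 and 0 CPM in KO 260 h libraries, where it had 2 UMIs in all. The library values of Gsc2 at 360 h were uneven, and with 2 UMIs the fitted change has no firm size. Tcp10a, Tcp10b and Tcp10c are near-identical copies on chromosome 17, and Gldnos and Kbtbd8os are antisense to Gldn and Kbtbd8, so reads may be shared and these 5 are uncertain.

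Among the genes that fell most by the same rule was Rad51ap2, a gene of meiotic recombination (chromosome 12, 11456079 to 11462928, plus strand). It had 0.267, 2.09 and 0.516 CPM in KO 360 h libraries, against 58.2, 102 and 59.4 CPM in KO 260 h libraries. Its log2 fold change of −6.24 ± 0.96 was the lowest named (adjusted p = 0.000479). The next were Hist1h1e, a linker histone whose annotation overlaps Hist1h2be (−6.09 ± 1.13), Cdkn1c, the cyclin-dependent kinase inhibitor p57 (−5.55 ± 0.76), Mdk, the growth factor midkine (−5.29 ± 0.75), and Tsen34, a subunit of the tRNA splicing endonuclease (−5.13 ± 0.47). Cdkn1c had 0.534, 0.859 and 3.09 CPM in KO 360 h libraries, against 93.1, 69.9 and 55 CPM in KO 260 h libraries. Sohlh2, a transcription factor of germ cells before and at meiotic entry, had 4.27, 15.8 and 15.4 CPM at 360 h, against 323, 321 and 252 CPM at 260 h. The rule also asked for no overlap between the libraries of the 2 times, so that separation is a condition of the naming and not a result. Tmem59l (−4.92 ± 0.49), Csk (−4.74 ± 0.64), Rab34 (−4.68 ± 0.56), Zfp467 (−4.65 ± 0.56), Rasgrp2 (−4.63 ± 0.41) and Aig1 (−4.62 ± 0.43) completed the 12.

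**Figure D2:**
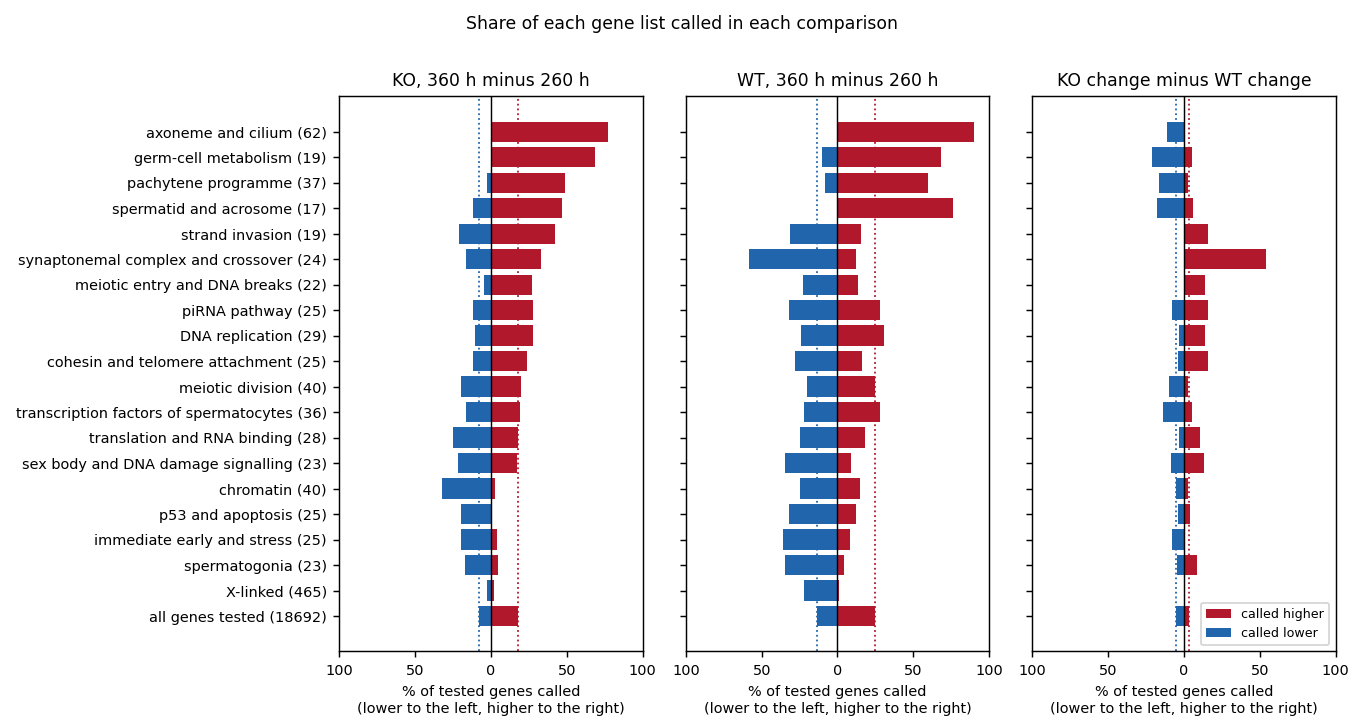
Share of the tested genes of each list called higher (right of 0) or lower (left of 0) in the KO stage change, the WT stage change and the difference of the KO and WT changes; the number of genes tested is in brackets and dotted lines mark the shares among all 18692 genes. Axoneme genes were called higher in both genotypes (77.4% in KO, 90.3% in WT), while synaptonemal complex and crossover genes were called lower for 16.7% in KO and 58.3% in WT and make the largest share called in the difference (54.2%).

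Genes of strand invasion, the step at which a broken DNA end searches the homologous chromosome, split in 2 directions. Of 19, 8 were higher (42.1%, against 18.1% of all genes) and 4 lower (21.1%, against 8.12%), with a median of 0.68. Mnd1, a partner of the recombinases, had 8.81, 12.3 and 8.97 CPM in KO 360 h libraries, against 234, 311 and 137 CPM in KO 260 h libraries (−4.50 ± 0.48, adjusted p = 1.49e-05). Dmc1, the meiotic recombinase, had 6.01, 17.7 and 10.6 CPM at 360 h, against 152, 129 and 105 CPM at 260 h (−3.49 ± 0.54, adjusted p = 0.000307). Rad51ap2 and the single-strand binding protein gene Meiob (−1.38 ± 0.29) were the others. By contrast Rad54b, a DNA translocase that assists strand exchange, had 295, 277 and 284 CPM in KO 360 h libraries, against 98.5, 115 and 68.8 CPM in KO 260 h libraries (1.60 ± 0.29, adjusted p = 0.000756), and Psmc3ip, which encodes the partner of MND1, rose (1.35 ± 0.34). Palb2, a gene of homologous recombination (1.05 ± 0.26), was higher too. The number higher was 6 with RLE factors or DESeq2, 2 with spike-in scaling and 3 over all kept cells, so the higher side of this list depends on the scale and on the cells used; the number lower was between 3 and 5.

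Of 22 genes of meiotic entry and of break formation, 6 were higher (27.3%, against 18.1% of all genes) and 1 lower (4.55%, against 8.12%). The other 15 were not called. Prdm9, the histone methyltransferase that places meiotic breaks and is usually an early prophase gene, had 57.8, 76 and 55.2 CPM in KO 360 h libraries, against 3.9, 13.8 and 14.1 CPM in KO 260 h libraries (2.60 ± 0.43, adjusted p = 0.000431). The 3 late libraries were all above the 3 early ones. Spo11, the break-making enzyme, had 114, 139.7 and 125 CPM at 360 h, against 35.8, 31.8 and 29.5 CPM at 260 h (1.96 ± 0.26, adjusted p = 7.38e-05). Ankrd31 (1.00 ± 0.19) and Mei1 (2.29 ± 0.52), which are needed for normal break formation, were higher as well. Hormad2, an axis protein, was the lower one (−0.98 ± 0.26, adjusted p = 0.00994), a call lost over all kept cells (adjusted p = 0.0976). Stra8, the retinoic acid target at meiotic entry, had 6.54, 77.5 and 83.6 CPM in KO 360 h libraries and 8.74, 18.4 and 11.7 CPM in KO 260 h libraries and was not called (adjusted p = 0.0968), replicate 1 at 360 h standing apart from the other 2.

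Of 24 genes of the synaptonemal complex and of crossover formation, 8 were higher (33.3%, against 18.1% of all genes) and 4 lower (16.7%, against 8.12%) in knockout (median 0.45). The counts were 4 and 0 with spike-in scaling, 4 and 4 with no filter, 9 and 2 over all kept cells and 3 and 3 with WT 260 h replicate 3 alone in the shared fit. Syce1, a central element protein, had 1254, 1008 and 877 CPM in KO 360 h libraries, against 260.4, 362 and 219 CPM in KO 260 h libraries (1.90 ± 0.30, adjusted p = 0.000295). 1700010I14Rik, listed with the synaptonemal complex genes, was higher too (2.15 ± 0.30), and so was Prr19, a protein needed for crossovers in mice (1.89 ± 0.28). Sycp1, the transverse filament protein that ties the 2 axes together, fell to 607, 999 and 878 CPM in KO 360 h libraries, against 1549.7, 1801 and 2016 CPM in KO 260 h libraries (−1.11 ± 0.25, adjusted p = 0.00415). That call was lost with spike-in scaling (adjusted p = 0.0919). Sycp2 and Sycp3, the axis proteins of the complex, were not called (−0.15 ± 0.21 and −0.06 ± 0.44).

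Cohesin and telomere genes had 6 members higher (24%) and 3 lower (12%) of 25, near the 18.1% and 8.12% of all genes. They were 5 and 5 in DESeq2 and 5 and 1 with spike-in scaling. Terb1 and Terb2, which tether telomeres to the nuclear envelope, rose together: Terb1 to 223, 172 and 174 CPM in KO 360 h libraries, against 42.1, 44 and 40.3 CPM in KO 260 h libraries, and Terb2 to 203, 221 and 173 CPM, against 81.4, 61.7 and 54.7 CPM. Cdk2, the kinase found at telomeres and crossover sites, was higher (1.26 ± 0.22, adjusted p = 0.000623), and so were the meiotic cohesins Smc1b (1.27 ± 0.24) and Stag3 (1.17 ± 0.22). Plk1, the polo-like kinase of the exit from prophase, fell to 4.0, 8.59 and 7.22 CPM in KO 360 h libraries, against 40.4, 30.4 and 26.5 CPM in KO 260 h libraries (−2.30 ± 0.38, adjusted p = 0.000395).

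Meiotic division genes showed no common direction, with 8 of 40 higher (20%, near the 18.1% of all genes) and 8 lower (20%, against 8.12%). The counts were 5 and 8 with RLE factors and 4 and 2 with spike-in scaling, and the sign of the median changed. Cdk1, the catalytic kinase of M phase, had 31.8, 47.1 and 48.8 CPM in KO 360 h libraries, against 149, 138 and 91 CPM in KO 260 h libraries, and was lower (−1.57 ± 0.28, adjusted p = 0.000741). Wee1, which inhibits CDK1 (−2.39 ± 0.35), and Cks1b, a subunit that binds it (−1.50 ± 0.26), were lower too, and Fbxo43, which holds back the anaphase-promoting complex, was higher (1.94 ± 0.26). DNA replication genes had 8 higher (27.6%, against 18.1% of all genes) and 3 lower of 29. These counts were 7 and 5 under RLE factors or DESeq2 and 6 and 0 with spike-in scaling, and the sign of their median changed with the scaling too. Chaf1b, a subunit of the chromatin assembly factor, had 71.5, 59.1 and 60.5 CPM in KO 360 h libraries, against 4.61, 3.4 and 4.7 CPM in KO 260 h libraries (3.91 ± 0.34, adjusted p = 4.55e-06). Prim1 (2.86 ± 0.37) and Pola2 (2.12 ± 0.35), of the primase and polymerase alpha complex, and Rrm1, of ribonucleotide reductase (1.63 ± 0.28), were higher as well.

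In the piRNA pathway, which silences transposons and processes the pachytene piRNAs, 7 of 25 were higher (28%, against 18.1% of all genes) and 3 lower. The counts became 5 and 5 in DESeq2 and 5 and 0 with spike-in scaling. Tdrd6, a scaffold of the chromatoid body, had 194, 142 and 128 CPM in KO 360 h libraries, against 44.5, 37 and 42.6 CPM in KO 260 h libraries (1.90 ± 0.27, adjusted p = 0.000111). Ddx25, an RNA helicase (1.46 ± 0.25), Piwil1 (1.50 ± 0.30) and Gtsf1, a cofactor of PIWI slicing (1.20 ± 0.25), were higher, while Piwil2 (−0.69 ± 0.20) and Mov10l1 (−0.87 ± 0.22), both of piRNA production in earlier germ cells as well, were lower. Of 28 genes of translation and RNA binding 5 were higher (17.9%, near the 18.1% of all genes) and 7 lower (25%, against 8.12%). With spike-in scaling 4 were higher and 1 lower. The poly(A) binding protein copies Pabpc2 (3.08 ± 0.39) and Pabpc6 (2.79 ± 0.37) and the Y-box protein gene Ybx3 (1.67 ± 0.29) rose. Dazl, the RNA-binding protein of germ cells that promotes translation, fell to 232, 367 and 380.0 CPM in KO 360 h libraries, against 1148, 1384 and 1266 CPM in KO 260 h libraries (−1.95 ± 0.26, adjusted p = 6.67e-05).

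Transcription factors of spermatocytes moved both ways, 7 of 36 higher (19.4%, near the 18.1% of all genes) and 6 lower (16.7%, against 8.12%). Which direction had more members depended on the scaling, with 5 and 7 under RLE factors and 6 and 8 in DESeq2. Sox6 had 116, 143 and 120.5 CPM in KO 360 h libraries, against 26.1, 24.5 and 30.2 CPM in KO 260 h libraries (2.24 ± 0.23, adjusted p = 1.01e-05), and Creb3l4 was described above. Ctcfl, the testis paralog of the insulator protein CTCF, fell to 7.21, 3.19 and 4.74 CPM at 360 h, against 37.1, 35 and 46.7 CPM at 260 h (−2.97 ± 0.41, adjusted p = 9.6e-05). Rfx2, the RFX factor needed for spermatid cilium genes in mice, was higher (0.93 ± 0.28, adjusted p = 0.0223).

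Chromatin genes were the list with the most members down: 13 of 40 were lower (32.5%, against 8.12% of all genes) and 1 higher, Dnmt1 (0.84 ± 0.26). Besides Hdac2 these included Hdac3, the deacetylase of the NCoR complexes (−2.25 ± 0.30), Hells, a chromatin remodeller, with 103, 115 and 111 CPM in KO 360 h libraries, against 398, 555 and 332 CPM in KO 260 h libraries (−1.96 ± 0.30, adjusted p = 0.000186), and the DNA methyltransferase Dnmt3a (−2.73 ± 0.51). Over all kept cells 13 were lower and 1 higher, and with spike-in scaling 4 were lower and 0 higher. Sex body and DNA damage genes had 4 higher (17.4%, near the 18.1% of all genes) and 5 lower (21.7%, against 8.12%) of 23. Their counts were 1 and 5 with RLE factors, 2 and 8 in DESeq2 and 1 and 2 with spike-in scaling. H2afx, whose phosphorylated histone coats the silenced XY chromatin, fell to 50.7, 48.5 and 39.5 CPM in KO 360 h libraries, against 607, 624 and 440.0 CPM in KO 260 h libraries (−3.59 ± 0.51, adjusted p = 0.000178). Ubr2, a ubiquitin ligase of the XY body, fell to 3.34, 13.2 and 5.78 CPM, against 82.2, 63.3 and 85.3 CPM (−3.36 ± 0.42, adjusted p = 3.82e-05). Atm, a kinase of the break response, was higher (1.43 ± 0.35, adjusted p = 0.00728), a call lost over all kept cells (0.13, adjusted p = 0.852).

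Of 25 genes of p53 and apoptosis, 5 were lower (20%, against 8.12% of all genes) and 0 higher. In DESeq2 or over all kept cells 8 were lower. Pmaip1, which encodes the death factor NOXA, had 1.2, 3.19 and 4.64 CPM in KO 360 h libraries, against 38.4, 26.5 and 45.3 CPM in KO 260 h libraries (−3.58 ± 0.48, adjusted p = 7.35e-05). Bax, which opens the mitochondrial membrane in apoptosis, had 16.7, 16.9 and 20.5 CPM at 360 h, against 123, 86.2 and 68.8 CPM at 260 h (−2.36 ± 0.33, adjusted p = 0.000108). Cdkn1a, the p53 target p21 (−2.78 ± 0.57), and Trp63 (−2.84 ± 0.72) were lower as well. Immediate early and stress genes had 5 lower (20%, against 8.12% of all genes) and 1 higher (4%, against 18.1%) of 25. The lower ones were 8 in DESeq2 or over all kept cells and 3 with spike-in scaling. Hspb1 (−3.24 ± 0.54), Jun (−2.31 ± 0.43) and Hspa1b (−3.03 ± 0.92) fell, and Ddit3, a factor of the endoplasmic reticulum stress response, rose to 125, 99.1 and 89.8 CPM in KO 360 h libraries, against 35.6, 43.6 and 22.5 CPM in KO 260 h libraries. Of 23 spermatogonia genes 4 were lower and 1, the DNA methyltransferase gene Dnmt3b, was higher (1.54 ± 0.40). The 4 lower (17.4%, against 8.12% of all genes) were 9 over all kept cells, 7 in DESeq2 and 1 with spike-in scaling, and over all kept cells Dnmt3b had a log2 fold change of −0.03 (adjusted p = 0.962).

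Few genes of the X chromosome were called. Of 465 tested X-linked genes, 8 were higher and 11 lower (4.09%, against 26.2% of all genes), with a median log2 fold change of −0.16. In the fit over all kept cells 4 of these 465 genes were higher and 55 lower, where 13.3% of all genes were higher and 10.2% lower. X-linked UMIs made up 0.195, 0.333 and 0.365% of gene UMIs in KO 360 h libraries, against 0.428, 0.391 and 0.486% in KO 260 h libraries. Every late library was below every early one (exact two-sided permutation p = 0.1, the smallest that 3 against 3 libraries allows, 0.2 after adjustment over 10 tests of shares). In wild type the shares were 0.179, 0.135 and 0.208% at 360 h and 0.582, 0.372 and 0.359% at 260 h. There 5 X-linked genes were higher (1.08%, against 25% of all genes) and 102 lower (21.9%, against 13.2%). Over all kept cells the KO shares were 0.195, 0.559 and 0.520% at 360 h and 0.928, 0.969 and 1.12% at 260 h, a larger gap. Of 10 Y-linked genes 3 were lower (30%, against 8.12% of all genes). Mitochondrial transcripts made up 1.95, 2.1 and 2.37% in KO 360 h libraries and 2.11, 2.29 and 3.39% in KO 260 h libraries, which overlap. Of 1136 long intergenic RNAs 300 were higher (26.4%, against 18.1% of all genes) and 34 lower (2.99%, against 8.12%). Of 783 antisense RNAs 207 were higher (26.4%) and 26 lower (3.32%). Of 14095 protein-coding genes 2406 were higher (17.1%) and 1383 lower (9.81%). As counting by strand is not stated, antisense RNAs may hold reads of the genes they overlap.

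**Figure D3:**
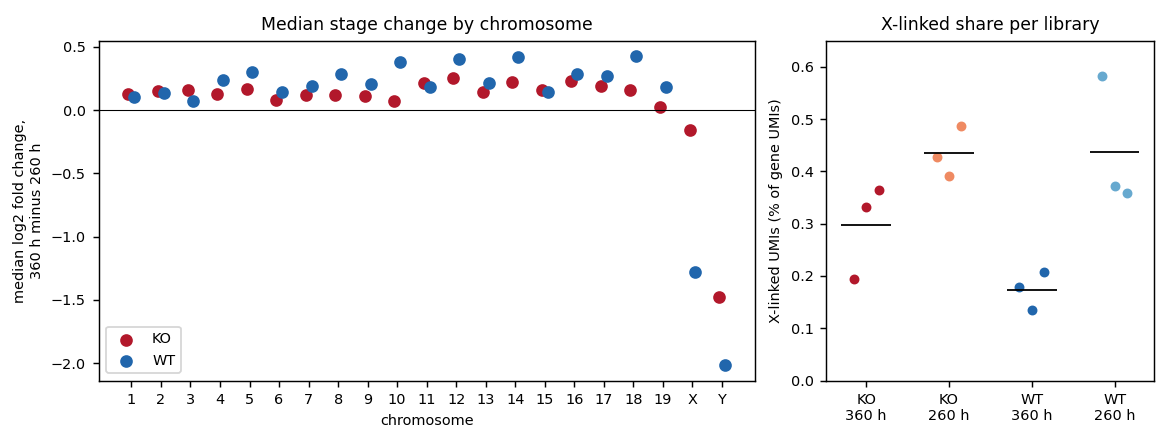
Left, the median log2 fold change (360 h minus 260 h) of the genes tested on each chromosome in KO and WT; right, X-linked UMIs as a percentage of gene UMIs in each library, with the mean of 3 libraries as a bar. The X median is −0.16 in KO and −1.28 in WT, and the KO 360 h libraries lie between 0.195 and 0.365%, below the KO 260 h libraries.

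Of the markers of cells other than germ cells, 1 was called between the KO groups. The summed level of 10 Leydig cell markers was 25.6 to 28.7 CPM in KO 360 h and 17.1 to 27.2 CPM in KO 260 h libraries, with Insl3 at 0 in all KO 360 h libraries, and 0 of the 7 tested markers was called. The 15 Sertoli cell markers summed to 165.9 to 549.7 CPM in KO 360 h and 464.1 to 557.1 CPM in KO 260 h libraries, and 1 of 14, Ctsl, was lower. Peritubular, endothelial and immune markers summed to 46.1 to 433.5 CPM in KO 360 h and 119.1 to 303.3 CPM in KO 260 h libraries, with 0 of 17 called. Late pachytene to diplotene markers summed to 5007 to 6450 CPM in KO 360 h and 2170 to 2395 CPM in KO 260 h libraries, in the order of the class names, which were made from expression. Of these 10 markers 4 were called higher and 0 lower. Ldhc was the largest part of the KO 360 h sum, at 3907, 2868 and 2595 CPM. Aurkc went the other way without a call, at 3.87, 3.19 and 5.88 CPM in KO 360 h and 6.73, 6.43 and 11.7 CPM in KO 260 h libraries. The summed level of early prophase markers overlapped between the times, at 2309 to 2671 CPM in KO 360 h and 2070 to 3611 CPM in KO 260 h libraries. Of these 10 markers 2 were called higher and 4 lower, so the sum joins members that moved in opposite directions. Pre-meiotic markers summed to 274.9 to 407.1 CPM in KO 360 h and 192.3 to 226.8 CPM in KO 260 h libraries, the sum being higher in every late library. Among these 10 markers 1, Dnmt3b, was called higher and 1 lower. Uchl1, not called, was the largest part of the sum, at 172, 170 and 195 CPM in KO 360 h and 115, 96.5 and 85.6 CPM in KO 260 h libraries. Stra8, Kit, Dmrt1, Sohlh1, Sall4, Zbtb16 and Gm4969 (Meiosin) overlapped between the times. Nanos3 went the other way, at 0.934, 1.96 and 1.75 CPM in KO 360 h and 5.32, 4.83 and 7.72 CPM in KO 260 h libraries. Gene UMIs per spike-in UMI were 12.3, 13.9 and 12.8 in KO 360 h and 10.4, 8.44 and 9.52 in KO 260 h libraries (exact two-sided permutation p = 0.1). The part of these differences in the results was not tested.

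Whether the change differed between the genotypes was tested against the wild-type change between the same times. Wild type had 7150 calls among the 18692 genes (38.3%), with 4676 upward (25%) and 2474 downward (13.2%). The upward share of these calls was 65.4%, 81% with spike-in scaling and 52.5% over all kept cells. Of the genes higher in knockout, 2360 (69.9%) were also higher in wild type, which is 50.5% of the wild-type higher calls. Of the genes lower in knockout, 725 (47.8%) were also lower in wild type, which is 29.3% of the wild-type lower calls. The genotypes went opposite ways for 71 genes called higher in KO and lower in WT, and for 62 called lower in KO and higher in WT. The test of the difference itself, the KO change minus the WT change, called 1573 genes (8.42%), 647 with a positive difference (3.46%) and 926 with a negative one (4.95%). All of the 71 and all of the 62 genes of opposite calls were among them. Opposite calls in the same fit nearly require this, so it is no separate support for them. Of the 1678 genes lower in wild type and not called in knockout, 362 passed the test of the difference, and of the 2254 higher in wild type and not called in knockout, 574 did.

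The wild-type side of this test is less even than the knockout side. The early class cells of WT 260 h replicates 1 and 2 were of cluster 2, apart from 1 cell, and summed to 1783543 and 4190716 UMIs, while those of replicate 3 were of cluster 3, as in knockout, and summed to 10879840. At 360 h the genotypes shared no cluster among the late class cells used. All of those in WT 360 h (83, 91 and 93 cells) were of cluster 5, and all of those in KO 360 h (77, 66 and 77 cells) of cluster 4. The part of this in the difference was not tested. Leydig markers summed to 34.9 to 119.0 CPM in the WT 260 h libraries, above the other groups. WT 360 h replicate 3 stood apart in spermatid markers, which summed to 269.1 CPM there, against 9.73 and 9.47 CPM in WT 360 h replicates 1 and 2, and their part in the difference of spermatid genes was not tested. With replicate 3 as the only WT 260 h library, 692 genes were called, 367 with a positive and 325 with a negative difference. In the fit over all kept cells 1031 genes were called, and with spike-in scaling 480, 98 with a positive and 382 with a negative difference. With 1 library left out the count was 735 without KO 360 h replicate 3, 824 without KO 360 h replicate 2, 1018 without KO 360 h replicate 1, 901 and 990 without KO 260 h replicates 2 and 1, 898 without WT 360 h replicate 2 and 895 without WT 260 h replicate 2.

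Genes of synapsis and crossover had the highest share called in the difference among the lists. Of 24 genes, 13 had a positive difference (54.2%, against 3.46% of all genes) and 0 a negative one, and 14 were lower in wild type. Hfm1, a helicase of crossover formation, had 523, 431 and 495 CPM in KO 360 h libraries, against 235, 336 and 213 CPM in KO 260 h libraries, while wild type had 86.4, 88 and 82.2 CPM at 360 h and 287, 226 and 234 CPM at 260 h (difference 2.43 ± 0.31, adjusted p = 0.000259). Knockout was thus higher at the late time and wild type lower. Mcmdc2, which is needed for strand exchange to be completed in mice, had 101, 129.5 and 146 CPM in KO 360 h libraries, against 68.5, 93.7 and 46 CPM in KO 260 h libraries. Wild-type libraries had 9.43, 14.1 and 16.4 CPM at 360 h, against 104, 57.6 and 45.8 CPM at 260 h (difference 3.21 ± 0.48, adjusted p = 0.001). Sycp1 was lower in both genotypes, by less in knockout (difference 1.22 ± 0.35). Msh4 (1.65 ± 0.45), Msh5 (2.04 ± 0.36), Tex12 (2.06 ± 0.38) and Syce3 (1.64 ± 0.34), which act at recombination sites or build the complex, also had positive differences. The count of 13 was 12 with RLE factors, 13 in DESeq2, 10 over all kept cells, 6 with WT 260 h replicate 3 alone and 2 with spike-in scaling.

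Some other recombination genes also had positive differences. Rad54b fell in wild type, to 36.4, 44.4 and 52.6 CPM at 360 h, against 212, 127 and 95.4 CPM at 260 h, so that its difference was 3.29 ± 0.41 (adjusted p = 0.000214). Prdm9, higher in KO 360 h, had 5.11, 3.67 and 3.07 CPM in WT 360 h and 3.58, 3.18 and 2.71 CPM in WT 260 h libraries (difference 2.25 ± 0.62, adjusted p = 0.0365). Atm had 13.7, 9.67 and 14.6 CPM in WT 360 h and 42.4, 19.7 and 15.4 CPM in WT 260 h libraries (difference 2.41 ± 0.50, adjusted p = 0.00828). Terb2 (1.88 ± 0.36), Sgo1, a protector of cohesion (2.54 ± 0.39), and Hormad2 (1.80 ± 0.36) had positive differences as well; that of Terb2 was lost with WT 260 h replicate 3 alone (adjusted p = 0.111) and those of all 3 with spike-in scaling. Early prophase markers summed to 955 to 1200 CPM in WT 360 h and 1675 to 3807 CPM in WT 260 h libraries.

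**Figure D4:**
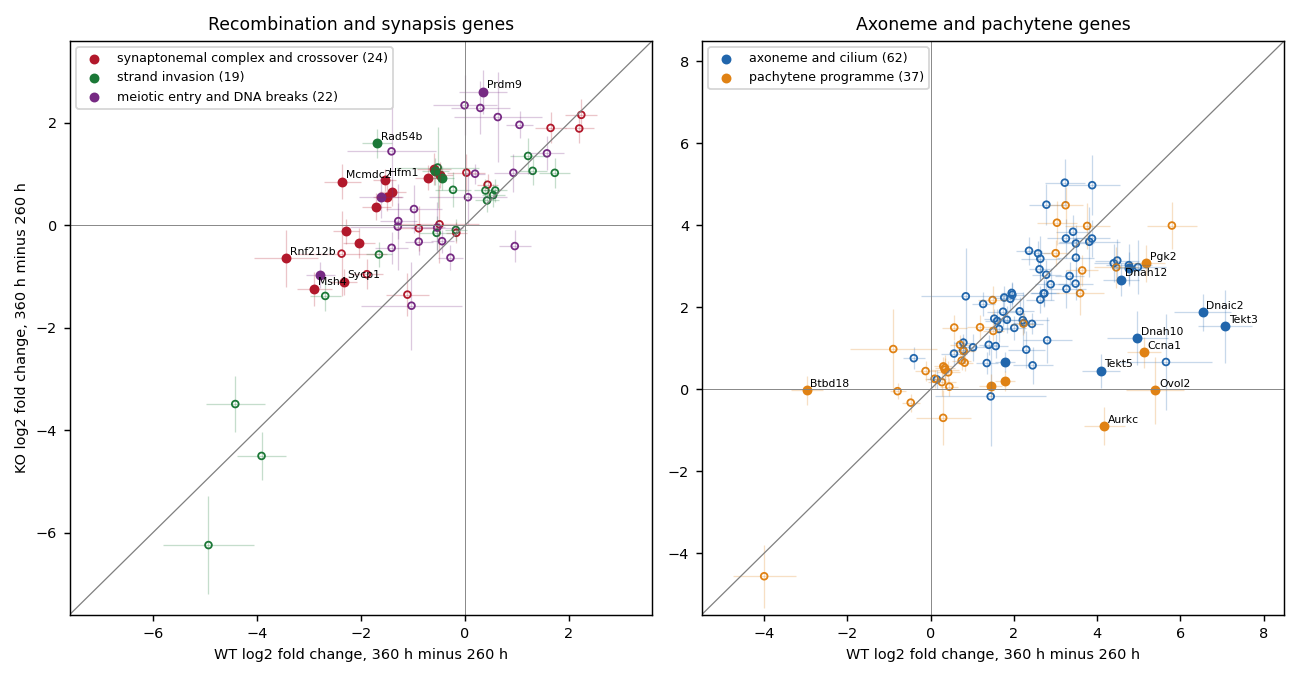
Log2 fold change between 360 h and 260 h in KO (vertical) against that in WT (horizontal) for recombination and synapsis genes (left) and axoneme and pachytene genes (right), with SE bars and the line of equal change; filled points passed the test of the difference, and a few of them are named. Synapsis and recombination genes lie mostly above the line, with Rad54b at 1.60 in KO and −1.69 in WT, while the filled axoneme and pachytene genes lie below it, except Btbd18.

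In the other direction, some pachytene genes that rose in wild type were not called in knockout. In the pachytene programme 6 of 37 genes had a negative difference (16.2%, against 4.95% of all genes) and 1 a positive one (2.7%, against 3.46%). The counts were 3 and 0 with spike-in scaling and 4 and 1 over all kept cells. Ccna1, the cyclin of the meiotic divisions of the male, had 4.14, 6.75 and 4.64 CPM in KO 360 h libraries, against 1.89, 4.11 and 2.35 CPM in KO 260 h libraries. In wild type Ccna1 had 60.4, 87.4 and 77.4 CPM at 360 h, against 2.04, 2.19 and 2.17 CPM at 260 h (difference −4.22 ± 0.54, adjusted p = 0.000259). Aurkc, the meiotic Aurora kinase, had 3.87, 3.19 and 5.88 CPM in KO 360 h libraries, against 6.73, 6.43 and 11.7 CPM in KO 260 h libraries. Wild-type libraries had 135, 186 and 70.5 CPM at 360 h, against 2.04, 9.34 and 8.76 CPM at 260 h (difference −5.08 ± 0.66, adjusted p = 0.000314). The KO 360 h libraries lay below every WT 360 h library for both genes. Ovol2 (−5.43 ± 1.05), Tbpl1 (−1.60 ± 0.33) and Tcfl5 (−1.35 ± 0.39), all transcription regulators, were not called in knockout and were higher in wild type. Pgk2 rose in both genotypes, by less in knockout (difference −2.11 ± 0.60).

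Of the 62 axoneme genes 7 had a negative difference (11.3%, against 4.95% of all genes) and 0 a positive one. The 7 were 2 over all kept cells or in limma-voom, 1 with both pachytene classes, 4 with spike-in scaling or with WT 260 h replicate 3 alone, and 13 with no filter. Tekt5 had 3.6, 6.13 and 4.54 CPM in KO 360 h libraries, against 3.66, 4.83 and 1.68 CPM in KO 260 h libraries. In wild type Tekt5 had 35.9, 53.9 and 77 CPM at 360 h, against 3.58, 2.98 and 3.33 CPM at 260 h (difference −3.64 ± 0.61, adjusted p = 0.00193). Dnaic2 was the other with the smallest p (−4.66 ± 0.83, adjusted p = 0.00305), a call lost over all kept cells (adjusted p = 0.685). Tdrd6 rose to 823, 831 and 525 CPM in WT 360 h libraries, against 51.6, 68.9 and 38.8 CPM in WT 260 h libraries, a larger change than in knockout (difference −1.88 ± 0.37, adjusted p = 0.00606). The transition protein gene Tnp2, a spermatid gene, had 7 UMIs over the KO 360 h libraries and 3 over the KO 260 h libraries, and in wild type 31, 55 and 594 UMIs in the 360 h libraries and 0 at 260 h, so WT 360 h replicate 3 held most of them.

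**Figure D5:**
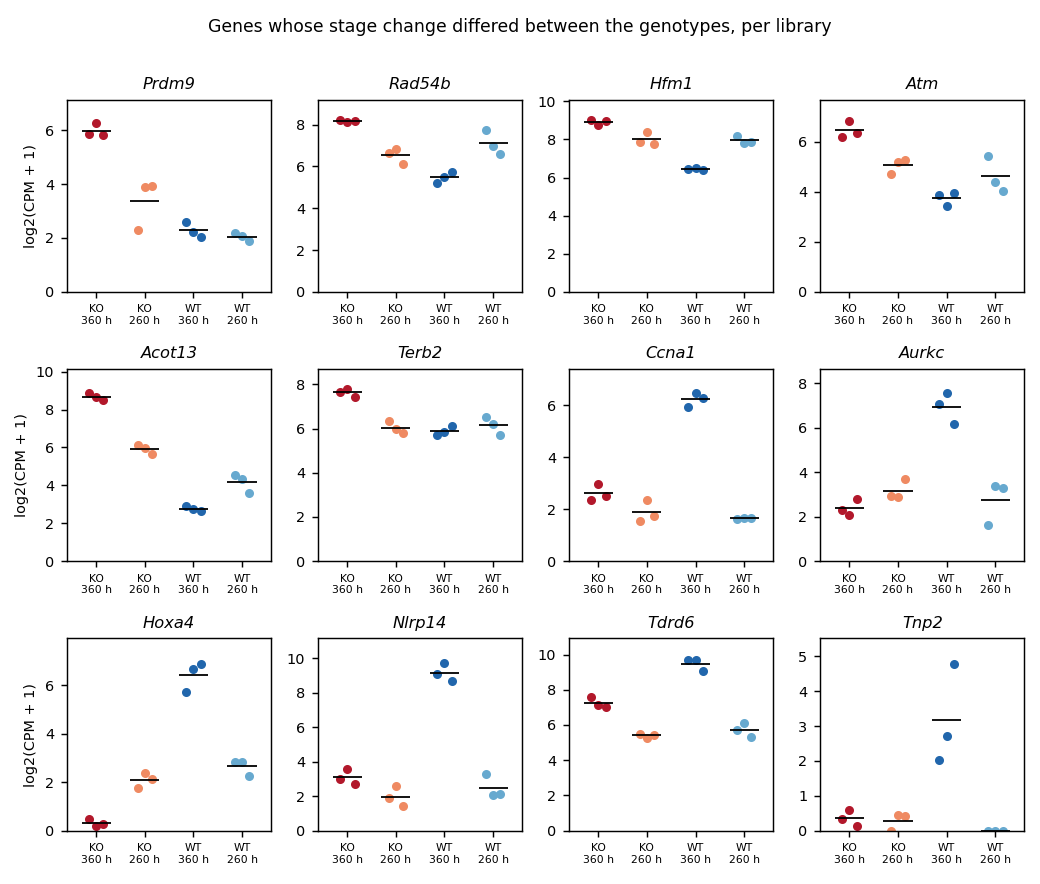
Level of 12 genes whose stage change differed between the genotypes, as log2(CPM + 1) in each library with the mean as a bar; KO 360 h, KO 260 h, WT 360 h and WT 260 h run from left to right. Prdm9, Rad54b, Hfm1, Atm, Acot13 and Terb2 have their highest libraries in KO 360 h, and Ccna1, Aurkc, Hoxa4, Nlrp14, Tdrd6 and Tnp2 in WT 360 h.

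By rule, the genes of at least 20 CPM on average with the most negative difference were Hoxa4, Ifitm7, Csl, Abcc3, Nlrp14, Cfap73, Tmem202 and Ccdc7a. Hoxa4, a homeobox gene (chromosome 6, 52189671 to 52191753, minus strand), fell in knockout, to 0.40, 0.123 and 0.206 CPM in KO 360 h libraries, against 2.36, 4.11 and 3.36 CPM in KO 260 h libraries, and rose in wild type, to 51.8, 102 and 116 CPM at 360 h, against 6.13, 6.16 and 3.8 CPM at 260 h (difference −7.79 ± 0.67, adjusted p = 1.77e-05). Other transcripts overlap Hoxa4 in the annotation, so part of its reads may be theirs. Nlrp14, a NOD-like receptor family gene of germ cells (chromosome 7, 107166990 to 107198102, plus strand), had 7.07, 11 and 5.47 CPM in KO 360 h libraries, against 2.72, 5.0 and 1.68 CPM in KO 260 h libraries. In wild type Nlrp14 had 538, 844 and 411 CPM at 360 h and 8.68, 3.18 and 3.41 CPM at 260 h (difference −5.79 ± 0.64). Csl, a testis citrate synthase-like gene, fell in knockout and rose in wild type (−5.98 ± 0.70). The KO 360 h level of all 8 genes was below 20 CPM in every library. Over all kept cells the calls of Ifitm7, Cfap73, Tmem202 and Ccdc7a were lost (adjusted p = 0.182, 0.206, 0.113 and 0.0851).

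The most positive differences were those of Sbk1, Anp32e, Acot13, Vkorc1, Ski, Atraid, Zfp68 and Tmem160. Acot13 (chromosome 13, 24817948 to 24831540, minus strand) had 477, 401 and 366 CPM in KO 360 h libraries, against 69, 60.8 and 50.3 CPM in KO 260 h libraries (2.78 ± 0.27, adjusted p = 6.83e-06), and in wild type 6.48, 5.8 and 5.2 CPM at 360 h, against 22.5, 18.9 and 11.1 CPM at 260 h (difference 4.33 ± 0.38, adjusted p = 1.77e-05). It was therefore above both wild-type groups already at 260 h in knockout and further above them at 360 h. Atraid had 379.6, 351 and 349 CPM in KO 360 h libraries, against 91.3, 87.2 and 62.1 CPM in KO 260 h libraries. Wild-type libraries had 11.4, 19.8 and 33.9 CPM at 360 h, against 119, 81.9 and 70.8 CPM at 260 h (difference 4.21 ± 0.47). Anp32e, a chaperone that removes the histone variant H2A.Z, had 123, 139.8 and 139 CPM in KO 360 h libraries, against 35, 54.9 and 62.4 CPM in KO 260 h libraries. In wild type Anp32e had 7.57, 2.65 and 3.6 CPM at 360 h, against 33.7, 44.3 and 41.3 CPM at 260 h (difference 4.53 ± 0.49). Vkorc1, the vitamin K epoxide reductase, followed the same pattern (4.29 ± 0.50), while Sbk1 fell in wild type and was not called in knockout (4.93 ± 0.72). All 8 were called with a positive difference also over all kept cells and with WT 260 h replicate 3 alone.

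Further genes of the lists had a difference with a different shape. Ctcfl had 1.77, 2.14 and 1.47 CPM in WT 360 h and 1.53, 1.19 and 1.16 CPM in WT 260 h libraries, below every KO 260 h library, and its fall was called in knockout and not in wild type (difference −3.48 ± 0.61, adjusted p = 0.00276). Plk1 had 13.8, 27.8 and 21.2 CPM in WT 360 h and 17.4, 20.5 and 19.6 CPM in WT 260 h libraries, mostly between the levels of the KO times (difference −2.42 ± 0.52, adjusted p = 0.0099). Cdkn1c had 5.21, 13.1 and 7.12 CPM in WT 360 h and 7.66, 11.7 and 44.8 CPM in WT 260 h libraries, and its difference was −4.16 ± 0.93 (adjusted p = 0.0139). Cpeb1, a regulator of poly(A) tails in germ cells, went the other way: it had 81.5, 85 and 82.1 CPM in KO 360 h libraries, against 156, 113 and 138 CPM in KO 260 h libraries. Wild-type libraries had 4.03, 3.36 and 4.58 CPM at 360 h, against 60.3, 53 and 83.8 CPM at 260 h (difference 3.32 ± 0.35, adjusted p = 9.03e-05). Fkbp6, a chaperone of the piRNA pathway, had 449.5, 457 and 414 CPM in KO 360 h libraries and 409.9, 403 and 296 CPM in KO 260 h libraries, and fell in wild type to 77.7, 94.8 and 87.5 CPM at 360 h, against 512, 349.5 and 388 CPM at 260 h (difference 2.51 ± 0.31, adjusted p = 0.0002). Both genes kept a higher level in KO 360 h than in WT 360 h libraries, with no overlap.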

How the data were processed

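Single spermatogenic cells of 12 libraries were profiled by a modified Smart-Seq2 protocol that counts 3′ ends with UMIs, and the authors deposited 1 table of raw UMI counts per library (55450 genes and 92 ERCC spike-in RNAs, per the file headers) and a cell table with class and k-means cluster, whose cells are the 929 kept. Per the submitters' processing notes, reads were handled with featureCounts 1.6.4, UMI-tools 1.0.0 and the aligner STAR 2.5.3a on mm10. Counts at 3′ ends do not scale with gene length, so levels were not compared between genes. No doublet removal is described in the sources used here and no doublet caller was run.

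The deposited counts were summed over the class cells of each library. Genes were filtered with filterByExpr and tested with edgeR 4.0.16 (R 4.3.3), TMM factors, 1 coefficient for each of 4 groups and glmQLFit with robust dispersion. The contrasts were KO 360 h minus KO 260 h, WT 360 h minus WT 260 h, and their difference. Shares of UMIs were compared by exact two-sided permutation tests. No pair of libraries agreed within sampling noise (the smallest chi-square over degrees of freedom was 10.06), and no class sum was left out. The procedure was checked on simulated data. Class sums held between 2328061 and 9463189 gene UMIs in knockout, so a gene at 1 CPM had few UMIs in the shallowest library.

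Genes named are Zfp541, the 12 called genes with the largest changes in each direction at a mean of at least 20 CPM without overlap and called likewise over all kept cells, the 8 with the largest differences in each direction at a mean of at least 20 CPM without overlap between the times in either genotype (with no condition on all kept cells), and up to 4 called members of each list (2 for the difference) with the smallest p. Cdk1, Dnmt1, Hdac1, Meiob, Mov10l1, Palb2, Piwil2, Prss50, Psmc3ip, Rfx2, Smc1b, Stag3, Sycp2, Sycp3, Msh5, Tex12, Syce3, Ovol2, Tbpl1, Tcfl5, the tail genes beyond Hydin, Cfap206, Armc3, Drc1, Tekt5 and Dnaic2, and the differences of Msh4, Sycp1, Prdm9, Atm, Pgk2 and Tdrd6 were named after their values were seen. The members and gene lists were chosen with earlier results of these data known. Some members of the lists are not reported here by name.

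The alternatives were RLE factors, DESeq2 1.42.0, limma-voom 3.58.1, spike-in scaling, no filter, all kept cells, both pachytene classes, cells thinned to 60000 UMIs, the knockout libraries alone, a replicate block, WT 260 h replicate 3 alone and leaving out each library.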

Additional observations from a re-analysis of the deposited data

Results flagged for a closer look

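The test of the difference between the KO and the WT stage change called 1573 genes in edgeR. Among the genes named by rule, those with a negative difference were Hoxa4 (−7.79), Ifitm7 (−6.84), Csl (−5.98), Abcc3 (−5.88), Nlrp14 (−5.79), Cfap73 (−5.67), Tmem202 (−5.64) and Ccdc7a (−5.56), in log2 units of the KO change minus the WT change. Those with a positive difference were Sbk1 (4.93), Anp32e (4.53), Acot13 (4.33), Vkorc1 (4.29), Ski (4.21), Atraid (4.21), Zfp68 (4.18) and Tmem160 (4.10). Each was noted because the test of the difference itself passed the threshold. The level of Ifitm7, of the interferon-induced transmembrane family, was 3.87, 1.23 and 1.75 CPM in KO 360 h and 0, 0.894 and 0.671 CPM in KO 260 h libraries, and in wild type 91.8, 158 and 50.4 CPM at 360 h and 0.511, 0.199 and 0.0775 CPM at 260 h. Abcc3, a transporter of organic anions, had 6.67, 6.38 and 6.81 CPM in KO 360 h and 5.55, 3.75 and 4.36 CPM in KO 260 h libraries, and in wild type 204, 425 and 151 CPM at 360 h and 4.09, 4.17 and 1.78 CPM at 260 h. Ski, a corepressor of SMAD signalling, had 54.6, 84 and 75 CPM in KO 360 h and 35.2, 7.86 and 27.2 CPM in KO 260 h libraries, and in wild type 9.04, 4.99 and 6.05 CPM at 360 h and 19.4, 47.7 and 53.6 CPM at 260 h.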

How the results depend on the processing

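Of the knockout results, the count of genes called was 2725 with spike-in scaling, and the lower calls numbered 407 with it, 2551 in DESeq2 and 2602 with the 6 knockout libraries alone. With each library left out in turn, the called genes ranged from 2738 to 3942, the higher ones from 1860 to 2815 and the lower ones from 788 to 1710. For the difference between genotypes the called, positive and negative counts were 2568, 971 and 1597 in DESeq2, 480, 98 and 382 with spike-in scaling, and 692, 367 and 325 with WT 260 h replicate 3 as the only early wild-type library, which is then assumed to vary like the other groups. Negative differences numbered 1628 with no filter, 564 of 1031 over all kept cells and 596 with both pachytene classes. With 1 library left out, 735 to 1364 genes were called, 330 to 598 with a positive and 405 to 772 with a negative difference. Dnmt3b turned over all kept cells (−0.03). The cause of these shifts was not tested.

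Over all kept cells the 360 h minus 260 h difference in knockout was −0.581 percentage points for X-linked and −0.021 for Y-linked UMIs. With 1 library left out, it was −0.171 to −0.0858 for X-linked, −0.0118 to −0.00704 for Y-linked, −0.696 to −0.0576 for mitochondrial and −0.729 to −0.0931 for ribosomal protein UMIs, and 3.02 to 4.02 for gene UMIs per spike-in UMI. With the replicate number as a block 4853 genes were called in knockout; same-numbered libraries did not deviate together (correlations −0.045, 0.045 and 0.000), and not every library correlated best with its own number.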
